A study of Mus musculus with 5 samples.

Results

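Intergenic Runx3 peaks at a middle distance from genes were those of the deposited list whose summit lay outside every protein-coding gene body and over 20 kb, up to 100 kb, from the nearest transcription start site (TSS) of a protein-coding transcript, on autosomes of mouse build mm9 with GENCODE vM1 genes. They numbered 1870 of the 13014 peaks of the list (14.4%), and of its 12905 autosomal peaks (14.5%). The rule used position alone. The list came from chromatin immunoprecipitation and sequencing (ChIP-seq) of D1 cells, a mouse dendritic cell line of spleen origin. It set Runx3 IP, made with a polyclonal rabbit antibody to mouse Runx3 (3 libraries in the series), against NIS IP, made with rabbit non-immune serum (2 libraries), from the same line. The authors called peaks on 8689867 Runx3 and 4946605 NIS tags left after duplicate removal, and the list gives 1 value per peak for all libraries it used, so the spread between replicates is unknown. Intervals and p-values below cover counting error only, and peaks of 1 list are not replicates.

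Runx3 is a transcription factor that binds DNA with its partner subunit Cbfb, through a runt domain that recognises a short core sequence, TGTGGT or TGCGGT on either strand. In blood cells RUNX factors often bind enhancers, stretches of DNA that act on promoters from a distance, beside the ETS factor PU.1, AP-1 and IRF factors. A peak that lies between genes cannot be tied to 1 gene by position, so a gene named below is the nearest by TSS and not a shown target. Fold enrichment is the authors' ratio of Runx3 signal at the summit to NIS background, and fragments are the Runx3 DNA fragments covering the summit. The background recovered from the fold had a lowest value of 0.314, about its genome average of 0.315. It stood above that average at 1008 of the 1870 peaks (53.9%), so at the others the fold follows the fragment count alone.

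The strongest of these peaks mostly carried the core at or beside the summit. The sequences below span 60 bases on either side of the summit, 5′ to 3′ on the plus strand of NCBIM37 (mm9), for strong peaks with a core, and capitals mark each core, read on the minus strand as ACCACA or as ACCGCA. They lie 47.2 kb upstream of Exoc6, an exocyst gene (chr19:37577624-37577744), 81.8 kb upstream of Heatr7b2 (chr15:4766920-4767040), 24.3 kb upstream of Lrrc8d, a subunit gene of the volume-regulated anion channel (chr5:106104669-106104789), and 20.2 kb upstream of Ccl2, a monocyte-attracting chemokine (chr11:81828776-81828896).
Exoc6: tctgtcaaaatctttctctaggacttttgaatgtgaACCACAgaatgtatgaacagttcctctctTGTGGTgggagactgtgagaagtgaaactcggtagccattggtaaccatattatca
Heatr7b2: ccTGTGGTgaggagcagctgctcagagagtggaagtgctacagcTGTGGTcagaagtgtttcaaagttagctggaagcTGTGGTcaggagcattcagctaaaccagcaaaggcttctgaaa
Lrrc8d: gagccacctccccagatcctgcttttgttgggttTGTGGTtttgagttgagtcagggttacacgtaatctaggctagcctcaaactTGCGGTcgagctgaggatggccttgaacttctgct
Ccl2: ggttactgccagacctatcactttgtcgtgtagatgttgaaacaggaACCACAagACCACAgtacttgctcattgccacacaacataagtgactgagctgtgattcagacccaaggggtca
The Exoc6 summit had 107 fragments (95% Poisson interval 87.7 to 129) and a fold of 47.1. Heatr7b2 reached 29.8 with 67 fragments and Lrrc8d 25.9 with 58. The Ccl2 peak, chosen after its values were seen, had a fold of 12.9 with 28 fragments and a pair of cores in the same orientation.

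Others held a core beside the letters of another factor. Capitals mark both: the ETS/PU.1 letters GAGGAAG (reverse complement CTTCCTC) 85.3 kb upstream of S1pr3, a sphingosine-1-phosphate receptor gene (chr13:51418590-51418710), the AP-1 letters TGANTCA 44.6 kb upstream of the kinase gene Map4k3 (chr17:81171963-81172083), and the composite ETS-IRF letters, GGAA set 2 bases before GAAA and read here on the other strand, 88.4 kb upstream of the F-box gene Fbxo33 (chr12:60409079-60409199).
S1pr3: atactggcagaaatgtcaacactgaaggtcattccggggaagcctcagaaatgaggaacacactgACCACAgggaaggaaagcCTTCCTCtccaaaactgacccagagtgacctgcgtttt
Map4k3: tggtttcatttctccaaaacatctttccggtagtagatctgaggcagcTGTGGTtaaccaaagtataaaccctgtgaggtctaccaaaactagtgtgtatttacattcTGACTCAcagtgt
Fbxo33: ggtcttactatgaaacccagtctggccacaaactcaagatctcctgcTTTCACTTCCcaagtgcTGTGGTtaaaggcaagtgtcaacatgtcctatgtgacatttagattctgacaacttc
Their folds were 28.8, 25.9 and 29.7, with 73, 60 and 69 fragments.

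A core was not required for a strong peak. The sequences below had no match to the core within 100 bp of the summit, which says only that these letters are not in the window. They lie 33.0 kb downstream of Niacr1, the nicotinic acid receptor gene (chr5:124282502-124282622), 20.6 kb upstream of the centrosomal protein gene Cep68 (chr11:20169991-20170111), and 50.6 kb upstream of Runx3 itself (chr4:134625872-134625992), the last chosen after its values were seen.
Niacr1: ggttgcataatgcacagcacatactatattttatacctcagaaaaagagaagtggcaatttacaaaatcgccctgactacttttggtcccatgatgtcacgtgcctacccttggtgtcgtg
Cep68: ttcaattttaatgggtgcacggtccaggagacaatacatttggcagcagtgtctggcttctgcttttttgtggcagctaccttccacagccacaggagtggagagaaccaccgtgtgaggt
Runx3: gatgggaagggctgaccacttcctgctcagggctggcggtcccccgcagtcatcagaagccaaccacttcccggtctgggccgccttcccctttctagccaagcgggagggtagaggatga
Niacr1 had the second highest fold of the 1870 peaks, 37.1 with 99 fragments. Cep68 had 28.1 with 71 fragments, and the Runx3 peak 15.9 with 35.

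The question of how densely Runx3 peaks lay at this distance was asked per Mb of eligible sequence, the exact number of sequenced bases that meet the same position rule. Middle-distance intergenic sequence, 427 Mb, held 4.38 peaks per Mb (95% Poisson interval 4.19 to 4.59). Near intergenic sequence, outside gene bodies and over 1 to 20 kb from a TSS, held 6.95, a ratio of 0.631 (0.592 to 0.672, adjusted p = 1.25e-45, exact conditional binomial test). Gene-desert sequence, over 100 kb from every TSS, held 1.03, so middle-distance sequence was 4.23 times as dense (3.89 to 4.62, adjusted p = 9.93e-277, exact conditional binomial test). Introns at the same 20 to 100 kb held 4.83, a smaller gap with a ratio of 0.908 (0.850 to 0.971, adjusted p = 0.00446, exact conditional binomial test). The share of each kind of sequence to which short reads align uniquely was not measured here.

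Density also differed within the 20 to 100 kb range. From 20 to 40 kb there were 885 peaks, 5.35 per Mb (5.0 to 5.71), and from 40 to 60 kb 475, 4.29 per Mb (3.91 to 4.69). From 60 to 80 kb 314 peaks gave 3.75 per Mb (3.35 to 4.19), and from 80 to 100 kb 196 gave 2.94 (2.54 to 3.38). The intervals of the first bin and the second did not overlap, while those of the later neighbours in this order did. Median strength moved little: the median fold of the 4 bins was 8.12, 8.18, 8.55 and 8.12, and the core lay at 68.9%, 72.6%, 70.1% and 69.9% of summits. Across the 1870 peaks, Spearman's correlation of fold with distance was 0.014, a description over peaks that share 1 pair of pooled libraries. At the limits, a peak of fold 5.93 lay 20.006 kb from Vps37b and was kept, one of 8.44 at 19.989 kb from Il1r2 was not, a peak of 12.7 at 99.941 kb from Ubl3 was kept, and one of 9.89 at 100.001 kb from Bnip2 was not.

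**Figure D1:**
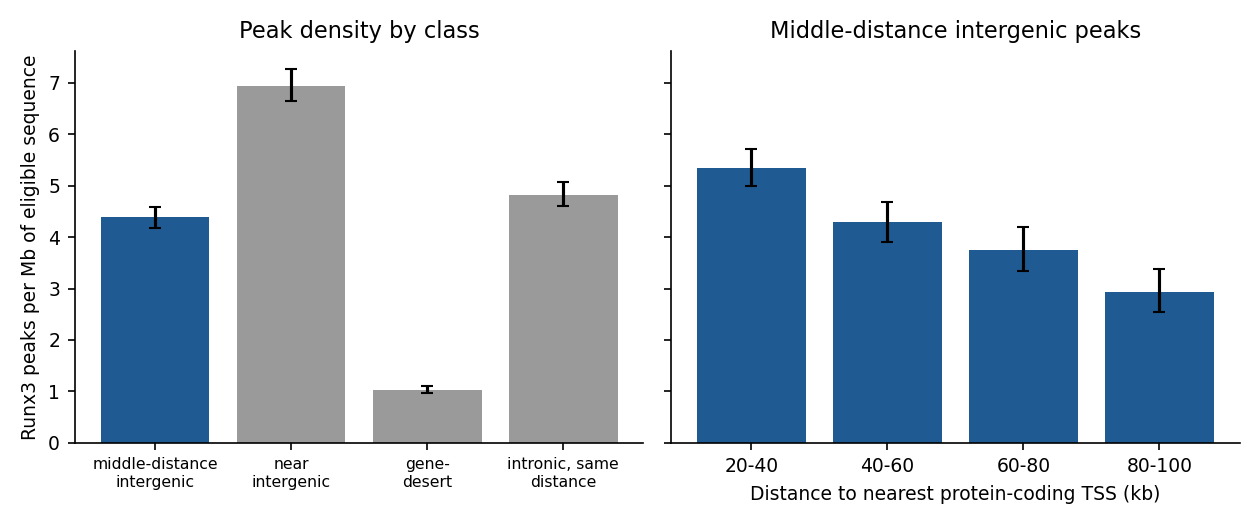
Runx3 peaks per Mb of eligible sequence (y axis, from 0) in 4 classes of position (left) and, for middle-distance intergenic peaks, in bins of 20 kb by distance to the nearest protein-coding TSS (right). Bars are counts over exact sequence length and error bars are 95% Poisson intervals; the middle-distance class stands at 4.38 per Mb, between 6.95 near genes and 1.03 in gene deserts.

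The side of the nearest TSS on which peaks lay did not differ detectably from that of the sequence itself. Upstream of it lay 1163 peaks (62.2%, 95% Wilson interval 60 to 64.4), against 60.8% of eligible bases (p = 0.227, two-sided exact binomial test), a difference of 1.38 percentage points. By chromosome, density ran from 7.53 per Mb on chromosome 19 (5.93 to 9.42) and 6.07 on chromosome 2 to 3.35 on chromosome 3 and 3.09 on chromosome 4 (2.42 to 3.88). Distal chromosome 5, from 110 Mb on, held 52 peaks at 7.15 per Mb with a median NIS background of 0.595, against 4.33 per Mb and 0.333 in the other autosomal sequence; the part of this background in the peaks there was not tested.

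The peaks ranged widely in strength. Fold enrichment ran from 3.75 to 47.1 with quartiles of 6.76, 8.12 and 10.7, fragments at the summit from 9 to 107 with a median of 20, and width up to 755 bp with a median of 174. A fold of 10 or more was reached by 566 peaks (30.3%) and of 20 or more by 43 (2.30%). The lowest folds, 3.75 near Dgkh and 3.94 near Klf13, had 18 and 19 fragments, close to the median, on a NIS background of 2.00, above the median of 0.334. The widest peak, 755 bp near the kinase gene Sik1, had a fold of 22.1 and 3 cores, while the next, 665 bp near Foxk1, had a fold of 5.08, no core and a NIS background of 2.00.

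Further strong peaks lay near genes of several kinds. After Exoc6 and Niacr1 came peaks near Lipg, the gene of endothelial lipase (31.4, 81.1 kb downstream), Asb2, a subunit of a ubiquitin ligase (30.2, 37.7 kb downstream), and Arhgap12 (30.1, 52.6 kb upstream). The Arhgap12 peak lay almost as near to the TSS of Kif5b, 52.7 kb away on its other side. Ctnna1, the gene of α-catenin, had a peak of 28.8 at 55.3 kb upstream. Folds from 25.5 down to 23.7 followed near Tomm20, of the mitochondrial import machinery, C130026I21Rik, Otos, Gm11084, Ubl3, Sash1, Enpp5 and Gm10463. Of the 20 strongest peaks, those near Niacr1, Cep68 and C130026I21Rik had no core within 100 bp. The peak at Heatr7b2 stood 292 kb from the next summit and that at Tomm20 1.65 kb, so the strongest included both isolated and grouped peaks.

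Strength did not differ detectably from that of other intergenic peaks. A fold at or above the autosomal median was found at 52.6% of them, against 53.0% of near intergenic peaks (difference -0.41 points, -3.57 to 2.75, adjusted p = 0.869) and 51.1% of gene-desert peaks (1.55, -2.68 to 5.78, adjusted p = 0.628, Fisher's exact tests). Against introns at the same distance, 56.6%, the difference was -3.94 points (-7.21 to -0.65) at an adjusted p of 0.0502, and it passed the threshold without distal chromosome 5 (-4.09 points, adjusted p = 0.0393; Fisher's exact, two-sided, adjusted over 18). GC content within 100 bp of the summit was at or above the autosomal median in 35.6%, against 41.7% near genes (adjusted p = 0.000608), 26.9% in gene deserts (adjusted p = 0.000112) and 33.6% in introns (adjusted p = 0.352, Fisher's exact tests). With a fold of 10 or more neither GC difference passed (-3.13 points, adjusted p = 0.646, and 8.38 points, adjusted p = 0.142), nor did that with near intergenic peaks when 1 peak was kept per 100 kb (-3.90, adjusted p = 0.106), where the intronic one passed (4.89, adjusted p = 0.0491, Fisher's exact tests).

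The RUNX core lay within 100 bp of the summit at 1312 of the 1870 peaks (70.2%, 95% Wilson interval 68.0 to 72.2). Windows of the same length 1 kb away held it in 17.9% on the lower and 17.6% on the higher coordinate side. The core was at the summit and not in the lower window in 1084 peaks, and the reverse in 107 (adjusted p = 6.31e-203, two-sided exact McNemar test). The share did not differ detectably from near intergenic peaks (68.6%, difference 1.57 points, -1.35 to 4.49, adjusted p = 0.440), gene-desert peaks (68.8%, 1.39, -2.46 to 5.37, adjusted p = 0.628) or introns at the same distance (70.8%, -0.66, -3.66 to 2.36, adjusted p = 0.770, Fisher's exact tests). Over all autosomal peaks it was 64.1%.

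Cores were centred on the summit. Their density was 12.5 and 12.2 per kb in the 20 bp before and after it, 6.20 and 5.53 in the next 20 bp on either side, and near 1 per kb beyond 100 bp. Of the 1312 peaks with a core, 515 (39.3%) had one within 10 bp, 941 (71.7%) within 25 bp and 1189 (90.6%) within 50 bp, with a median of 13.5 bp. One core was found in 935 peaks, 2 in 310, 3 in 53 and 4 in 8, and the most were 10 or 11 in 3 windows.

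**Figure D2:**
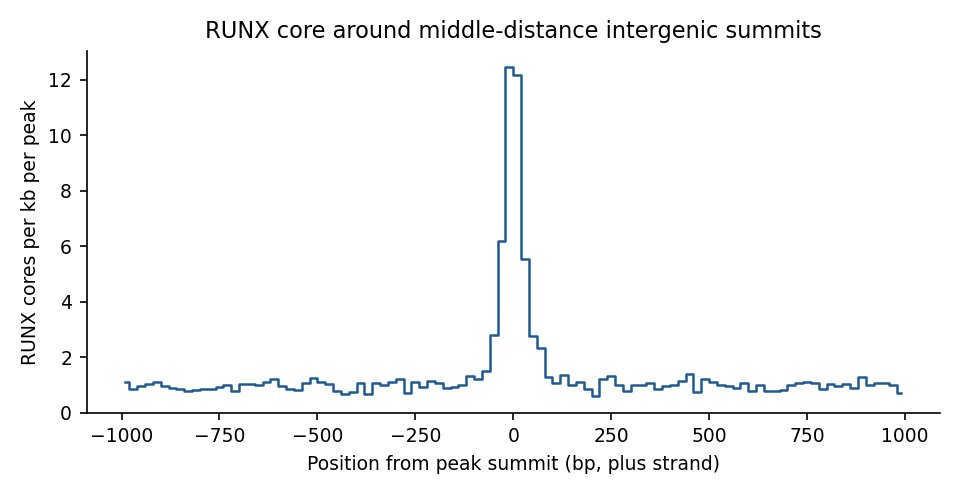
RUNX cores per kb per peak (y axis, from 0) in 20 bp bins by position from the summit (x axis, bp) over the 1870 middle-distance intergenic peaks. The line peaks at 12.5 and 12.2 in the bins that touch the summit and lies near 1 beyond 100 bp.

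The bases beside the core were not alike at summits and in flanks. TGTGGT occurred 1577 times at summits, 4.50 times the mean of the flanks, and TGCGGT 216 times, 8.15 times the mean. Read with the next 2 bases where the window held them, TGTGGTTA occurred 154 times against a mean of 11 in the flanks (14 times), TGTGGTCA 236 against 17.5 (13.5 times) and TGTGGTTT 290 against 30 (9.67 times). At the other end, TGTGGTGT occurred 63 times against 43 (1.47 times). The Fbxo33 and Map4k3 sequences above hold TGTGGT followed by TA, and Heatr7b2 has 2 cores followed by CA.

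The core was more frequent at stronger peaks. In quintiles of 374 peaks by fold, lowest to highest, it was found in 59.1%, 64.2%, 72.7%, 74.9% and 79.9%, and 2 or more cores in 15.0%, 13.6%, 17.9%, 24.1% and 30.2%. The highest quintile, with folds of 11.6 to 47.1, exceeded the lowest, 3.75 to 6.39, by 20.9 points (14.3 to 27.1, adjusted p = 5.08e-09, two-sided Fisher's exact test adjusted over 7 properties, a comparison added after values were seen). Among peaks with a fold of 10 or more alone, the highest quintile minus the lowest was -1.05 points (Fisher's exact p = 0.867). ETS/PU.1, AP-1, C/EBP, ETS-IRF and CTCF letters, and another summit within 10 kb, did not differ detectably between the highest and lowest quintiles; for AP-1 the difference was -2.14 points (-7.58 to 3.31) and for ETS/PU.1 3.74 (-2.48 to 9.93). Fold was lower where the NIS background was higher (Spearman's correlation -0.194, n = 1870 peaks), and that background is part of the fold's denominator.

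**Figure D3:**
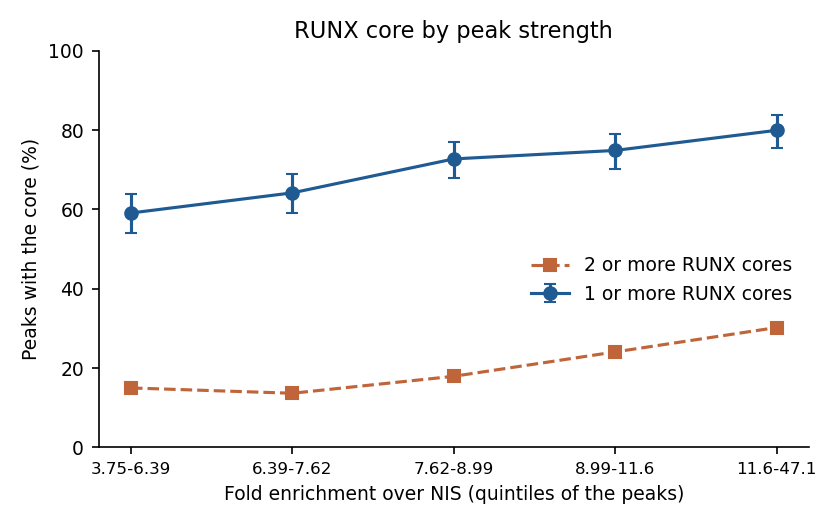
Share of middle-distance intergenic peaks (y axis, %) with 1 or more RUNX cores (circles, 95% Wilson intervals) and with 2 or more (squares) within 100 bp of the summit, in quintiles of 374 peaks by fold enrichment (x axis, range of fold in each quintile). The first share is 79.9% in the highest and 59.1% in the lowest quintile.

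Letters of other factors were searched in the same windows, on both strands. The ETS/PU.1 letters GAGGAAG lay at 24.9% of summits, against 8.07% and 8.18% of the lower and higher windows, and AP-1 letters at 18.1%, against 7.01% and 5.72%. The composite ETS-IRF letters lay at 8.07% against 2.57% and 2.94%, the E-box CAGCTG at 12.9% against 9.84% and 8.72%, and the GC box GGGCGG at 6.36% against 2.73% and 3.42%. CTCF letters (the central bases of its motif) lay at 4.39% against 2.62% and 2.41%, and NF-κB letters (GGGA set 2 bases before TTCC) at 1.66% against 0.535% and 0.374%. These 7 were higher at the summit than in both flanks, with adjusted p from 1.05e-44 to 0.00566 (two-sided exact McNemar tests, adjusted over 24). ETS/PU.1, AP-1 and ETS-IRF letters kept this call in every alternative run. With a fold of 10 or more, NF-κB (adjusted p = 0.170 and 0.0772), the E-box (0.201, lower flank), CTCF (0.581, lower flank) and the GC box (0.263, higher flank) did not pass, and with 1 peak per 100 kb, which left 5 motifs, the E-box (0.0619, lower flank) and CTCF (0.0671 and 0.0600, exact McNemar tests) did not. The E-box did not pass at 25 to 75 kb (0.117, lower flank), NF-κB within 50 bp (0.351 and 0.0736) or CTCF within 200 bp (0.253, lower flank, adjusted p of exact McNemar tests). C/EBP letters (TTGCNNAA, 9.41%), the interferon-stimulated response element (GAAA set 2 bases before GAAA, 3.48%) and the SMAD letters CAGACA (19.7%) did not differ detectably from either flank, but the response element passed against the lower one with 1 peak per 100 kb (1.78 points, adjusted p = 0.0340) and within 200 bp (2.03, adjusted p = 0.0129, exact McNemar tests). GATA letters, AGATAA, lay at 8.18% against 9.79% and 10.7%, lower than the higher window (adjusted p = 0.0109) and not detectably than the other (adjusted p = 0.124, exact McNemar tests), and the first call was lost in 5 alternatives (adjusted p from 0.0521 to 0.506, exact McNemar tests). At a −log10 q of 5 the difference to the lower window passed (-2.39 points, adjusted p = 0.0362, exact McNemar test).

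**Figure D4:**
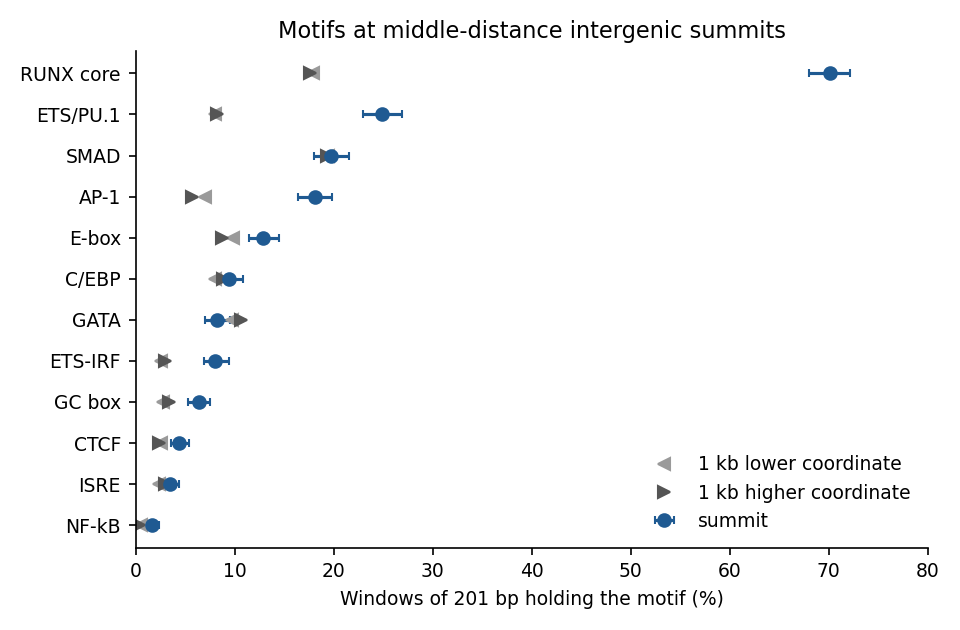
Share of windows of 100 bp on either side holding the letters of each of 12 motifs (x axis, %), at middle-distance intergenic summits (circles, 95% Wilson intervals) and 1 kb to the lower and higher coordinate side (triangles). The RUNX core stands at 70.2% against 17.9% and 17.6%, and ETS/PU.1 at 24.9% against 8.07% and 8.18%.

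Some letters share bases. The E-box overlapped a core in 21 of 164 peaks that held both (CAGCTG running into TGTGGT, as in Heatr7b2), SMAD letters in 21 of 252 and CTCF letters in 6 of 54. The ETS/PU.1 letters as spelled here cannot share a base with a core, so their 0 of 313 is no result about the peaks. A window can also hold ETS/PU.1 and ETS-IRF letters at the same GGAA. Between peaks with and without a core, ETS-IRF letters lay at 6.86% against 10.9% (-4.07 points, -7.19 to -1.31, adjusted p = 0.0217) and the GC box at 5.18% against 9.14% (-3.96 points, -6.84 to -1.45, adjusted p = 0.0202; Fisher's exact, two-sided, adjusted over 11). The other 9 motifs, ETS/PU.1 (23.9% against 27.4%) and AP-1 (17.8% against 18.6%) among them, did not differ detectably. With a fold of 10 or more neither passed, at -5.40 points for ETS-IRF (adjusted p = 0.357) and -1.37 for the GC box (adjusted p = 0.990, Fisher's exact tests). ETS-IRF also did not pass at 25 to 75 kb (-4.38, adjusted p = 0.0801), within 200 bp (-2.26, adjusted p = 0.437) or with TGTGGT alone as core (-2.91, adjusted p = 0.103), nor the GC box at a −log10 q of 5 (-2.26, adjusted p = 0.671, Fisher's exact tests).

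Companion letters were set against the other classes in tests chosen after their shares were seen (Fisher's exact tests, adjusted over 33). AP-1 letters were more frequent at middle-distance than at near intergenic peaks, 18.1% against 14.0% (4.10 points, 1.78 to 6.43, adjusted p = 0.00948), and CTCF letters less frequent, 4.39% against 6.48% (-2.09, -3.54 to -0.65, adjusted p = 0.0364, exact tests). The GC box lay at 6.36% of middle-distance peaks, against 2.28% in gene deserts (4.08, 2.40 to 5.55, adjusted p = 0.000287) and 4.15% in introns (2.21, 0.73 to 3.69, adjusted p = 0.0364, exact tests). The other 29 differences did not pass. None of these 4 passed with 1 peak per 100 kb, where the differences were 3.34, -1.23, 3.43 and 1.91 points in that order (adjusted p of 0.263, 0.572, 0.0907 and 0.292), nor with a fold of 10 or more (adjusted p from 0.616 to 1, Fisher's exact tests). Within 50 bp of the summit none passed either (adjusted p from 0.0553 to 0.177), and AP-1 did not within 200 bp (adjusted p = 0.0954, Fisher's exact tests). CTCF did not pass at a −log10 q of 5 (adjusted p = 0.208), without distal chromosome 5 (adjusted p = 0.0759) or with 1 outermost TSS per gene (adjusted p = 0.0513), where the GC box against introns did not either (adjusted p = 0.572, Fisher's exact tests).

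Many peaks had a neighbour close by. Another summit of the list lay within 10 kb of 791 of them (42.3%), against 50.7% of near intergenic peaks (-8.39 points, -11.5 to -5.23, adjusted p = 1.93e-06), 34.5% of gene-desert peaks (7.85, 3.72 to 11.9, adjusted p = 0.000742) and 37.9% of intronic peaks (4.39, 1.15 to 7.61, adjusted p = 0.0244, Fisher's exact tests). At a fold of 10 or more these differences were -5.24, 4.07 and 0.71 points and did not pass (adjusted p = 0.142, 0.520 and 0.943, Fisher's exact tests), and the intronic one passed at a −log10 q of 5 (5.35 points) and without distal chromosome 5 (4.30 points) but not with 1 peak per 100 kb, 1 outermost TSS per gene, limits of 25 and 75 kb, or neighbours counted within 5 or 25 kb. The gene-desert one did not pass with neighbours within 5 kb (3.81 points, adjusted p = 0.127, Fisher's exact test). The nearest neighbour was another middle-distance intergenic peak in 732 of the 791 (92.5%). The position rule itself favours this within 10 kb, and the share to be met from position alone was not counted. Linking summits at most 10 kb apart gave 1130 single peaks and 318 chains of 2 or more that held 740 peaks, 77 of them of 3 or more and 18 of 4 or more.

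The longest chains held 6 peaks. One lay 74.0 to 79.8 kb upstream of Bmp2k, a kinase gene induced by BMP2, within 5.83 kb of chromosome 5 (97346917 to 97352750); its folds were 11.0, 13.3, 8.55, 5.52, 7.25 and 5.27 with increasing distance, and only that of 7.25 had a core. The other lay 54.7 to 68.2 kb downstream of Gcnt1, the gene of the enzyme that branches core 2 O-glycans, within 13.5 kb of chromosome 19 (17339544 to 17353060). Its folds were 9.04, 7.69, 5.96, 10.7, 7.69 and 5.34, and the last 5 had a core. The chains differed in how many peaks held the core, 1 of 6 and 5 of 6. Chains of 5 lay near Tomm20, Frmd8, Ubl3 and Ly6e, among others.

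By gene, 1196 protein-coding genes were the nearest to 1 or more of these peaks, 11.8% of the 10135 autosomal genes that have eligible sequence around them and 5.62% of all 21275. Of the 1196, 777 had 1 peak, 419 had 2 or more, 164 had 3 or more and 22 had 5 or more. Ubl3, which encodes a membrane-anchored ubiquitin-like protein, had the most, 12, with 7 upstream and 5 downstream over 166 kb. All 12, like the Niacr1 peak, lie on distal chromosome 5, where density and NIS background were higher than elsewhere (median background 0.595 against 0.333). The background of the 12 ran from 0.381 to 1.00, and its part in them was not tested. Those 42.1 to 66.3 kb away had folds of 7.05 to 13.4, and the 4 from 81.4 to 99.9 kb upstream had 11.1, 22.2, 24.4 and 12.7, so the strongest were among the most distant. Of the 12, 10 held a core. Tomm20 had 8, all downstream, 5 of them with a core, with folds of 5.34 to 12.9 apart from the farthest (25.5).

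Other genes with many peaks were 3930402G23Rik (7, folds 6.67 to 11.2), Lrpap1, a chaperone of LDL receptor family proteins (6, 7.69 to 17.2), Bmp2k and Gcnt1 (above) and Gm5921 (6, 6.46 to 8.55). Exoc6 and Plcl2, a phospholipase C-like gene, had 5 each. At Exoc6 the 5 peaks had folds of 9.15, 12.1, 7.69, 47.1 and 4.77 at 20.1, 26.5, 35.3, 47.2 and 55.0 kb upstream, so a single peak stood far above its neighbours. The RUNX genes were among those with several: the 5 peaks of Runx3 had folds of 6.82 and 9.85 downstream and 15.9, 6.82 and 6.76 upstream, and the 3 of Runx1, at 26.3 to 48.1 kb upstream, had 10.3, 7.33 and 6.19.

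Genes of dendritic cells and of immune signalling were looked up in 16 lists, with each list's peaks per Mb of its genes' eligible sequence beside the 4.38 of all such sequence and the 11.8% of genes. Intervals are exact Poisson, and genes of 1 neighbourhood share peaks and sequence. Chemokines and their receptors had 8 of 18 eligible genes nearest to a peak and 33.1 peaks per Mb (16.5 to 59.2), the highest of the lists on 0.333 Mb. They were led by Ccl2 (12.9, 3 peaks), Ccr7, which guides dendritic cells to lymph nodes (11.6), Cxcl1, a neutrophil attractant (11.0), and Ccr1 (8.55). Cytokines and receptors had 9 of 26 and 15.5 per Mb (9.19 to 24.5), led by Ifngr1, a chain of the interferon-γ receptor (16.9), the decoy receptor gene Il1r2 (13.3, 3 peaks), Lifr (11.3) and Ifngr2 (10.9, 3 peaks).

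Regulators and receptors of dendritic cells had 7 of 20 eligible genes and 11.2 per Mb (5.61 to 20.1). Bcl6, a repressor needed by conventional dendritic cells, had a peak of 17.1 at 27.5 kb upstream, followed by Batf (10.18), Id2 (9.97) and Cebpb (9.42, 4 peaks). AP-1, KLF and early response factors had 15 of 28, the most genes of the 16 lists, and 13.8 per Mb (9.37 to 19.6), with 14.6 for both Klf6 and Klf7, 14.3 for the nuclear receptor gene Nr4a1 and 12.7 for Klf9. Jun and Fos, AP-1 subunits chosen after their values were seen, had 1 peak each, of 8.12 and 7.69. RUNX factors and partners had 5 of 6 and 17.0 per Mb (8.49 to 30.4), with the Groucho family co-repressors Tle3 (15.0) and Tle4 (12.9) and with Runx3 and Runx1.

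Pattern recognition and NF-κB had 3 of 15 eligible genes and 9.13 per Mb (3.35 to 19.9), an interval that takes in 4.38. The genes were Nfkbia, whose protein holds NF-κB in the cytoplasm (15.9), Nfkbiz, which encodes an atypical, nuclear member of the same inhibitor family (11.2), and Tnfaip3, which encodes the ubiquitin-editing enzyme A20 (8.86), with 2 peaks each. Interferon and STAT signalling had 5 of 15 and 21.0 per Mb (10.5 to 37.6), with Jak2 (12.5), the cytokine signalling suppressors Socs5 (12.5, 4 peaks) and Socs2 (10.7), and Irf2bp2 (9.42). Antigen presentation and co-stimulation had 3 of 10 and 10.3 (2.81 to 26.4): Tnfsf18 (15.9), Icosl, the ICOS ligand (14.7), and H2-K1 (5.96).

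TGF-β signalling had 5 of 23 eligible genes (21.7%, 95% Wilson interval 9.66 to 41.9) and 5.31 per Mb (2.14 to 10.9). Both intervals are wide, and they take in the 11.8% and the 4.38 of all. The list was led by Smad4, the common mediator (13.7), Smad2 (10.5, 3 peaks), Pmepa1 (9.13) and Smad7 (8.01). Notch signalling had 3 of 14 and 8.09 (2.97 to 17.6), with Rbpj, the DNA-binding effector (13.7), its coactivator Maml2 (12.9) and Notch2 (10.7). The β-catenin list had 6 of 17 and 7.23 (3.31 to 13.7), with Apc, of the complex that degrades β-catenin (22.4, 3 peaks), Wnt11 (15.3), Fzd7 (9.85) and Lef1 (8.29). Survival and cell cycle control had 6 of 13 and 17.6 (9.07 to 30.7), with Bcl2l11, which encodes the cell death protein Bim (18.1, 4 peaks), Pmaip1, which encodes Noxa (14.9), Bmf (12.2) and the kinase gene Pim1 (10.6).

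Genes of other tissues had none of these peaks. Muscle genes had 0 of 11 eligible, neuronal genes 0 of 17 and liver genes 0 of 11, on 0.234, 0.817 and 0.357 Mb. The upper limits that a count of 0 allows at this length were 15.8, 4.51 and 10.3 per Mb, each above 4.38, so the lists are too short on sequence to tell them from the rest. Ribosomal protein genes had 1 of 6, Rplp1, with 3 peaks of up to 9.32. On 0.208 Mb this gave 14.5 peaks per Mb (2.98 to 42.2), as high as several immune lists, with an interval that takes in 4.38.

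**Figure D5:**
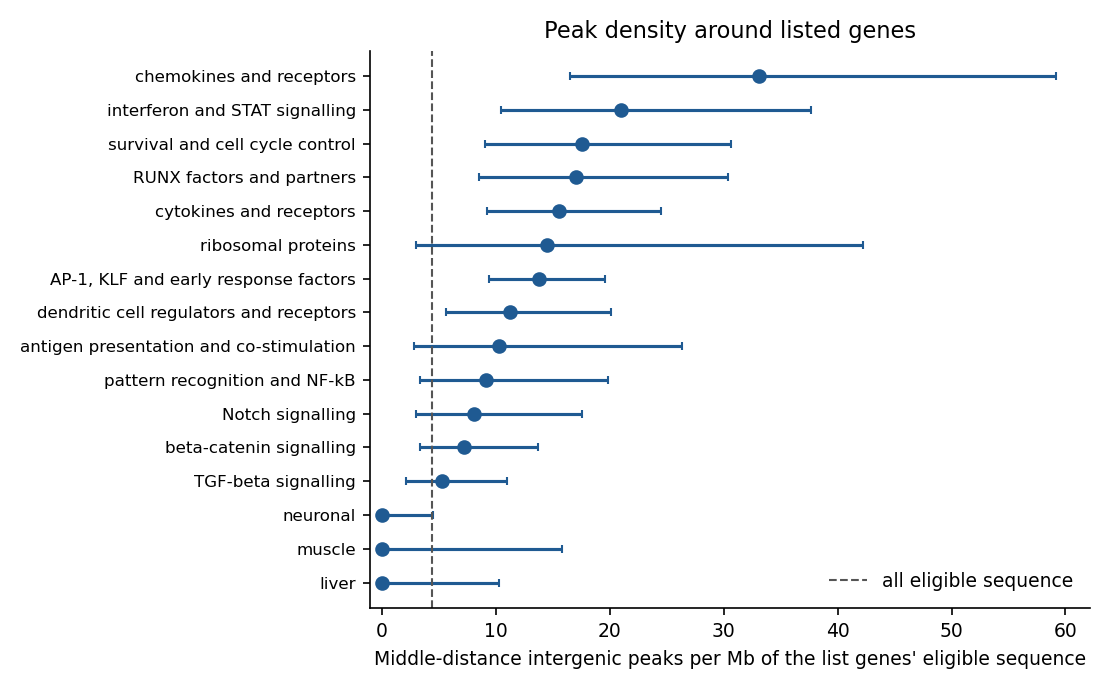
Middle-distance intergenic peaks per Mb of the eligible sequence nearest to the genes of each of 16 lists (x axis), with exact 95% Poisson intervals; the dashed line is all eligible sequence, 4.38 per Mb. Chemokines stand at 33.1 and TGF-β signalling at 5.31, and muscle, neuronal and liver genes at 0.

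Gene names from the study's own expression lists of colonic cells that lost Runx3, which were made in other cells and are not independent evidence, were looked up in the same way. Genes lower in resident macrophages after Runx3 loss had 15 of 75 eligible genes nearest to a peak and 9.18 peaks per Mb (6.19 to 13.1), and genes higher had 6 of 41 and 5.93 (2.85 to 10.9). In CD11b+ dendritic cells the lower genes had 17 of 89 and 7.07 (4.77 to 10.1), and the higher genes 5 of 38 and 4.97 (1.82 to 10.8). The intervals of lower and higher genes overlapped in both cell types. All eligible sequence held 4.38 peaks per Mb. The intervals of both higher lists took in this value, and those of both lower lists lay above it, that of dendritic cells narrowly (from 4.77). These intervals count chained peaks as independent. Each lower list had 30 peaks, 6 of them the Gcnt1 chain and 3 those of Mtss1. Both lists share these peaks, so they are not separate observations. The higher genes nearest to a peak, 14.6% in macrophages and 13.2% in dendritic cells, were close to the 11.8% of all eligible genes. The lists were not tested against all eligible sequence or genes. Peaks of the lower lists included those of Asb2 (30.2), Ptger2, a prostaglandin E2 receptor gene (18.9), Ms4a7 (16.3), Fam125b (14.9) and Fgfr1 (12.9). Those of the higher lists included Gpr33 (15.9), Enc1 (15.5), Tgm2, a transglutaminase gene (12.5), and Irg1, whose enzyme makes itaconate (12.4, 4 peaks). Gcnt1, with its chain of 6, and Mtss1 (11.3, chosen after its values were seen) were in both lower lists.

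Some peaks between protein-coding genes lay in annotated non-coding genes. There were 114 (6.10%, 95% Wilson interval 5.10 to 7.27), 62 in a lincRNA, 46 in a processed transcript and 7 in a pseudogene, some under more than 1 kind, with 69 peaks (3.69%) within 1 kb of a non-coding gene's start. The share was 5.76% in near intergenic peaks (0.33 points, -1.17 to 1.84, adjusted p = 0.770), 3.89% in gene deserts (2.21, 0.29 to 3.87, adjusted p = 0.0631) and 2.17% in introns at the same distance (3.93, 2.64 to 5.25, adjusted p = 7.87e-08, Fisher's exact tests). The gap to gene deserts passed at limits of 25 and 75 kb (3.76 points, adjusted p = 0.000441), without distal chromosome 5 (2.42, adjusted p = 0.0393) and with 1 outermost TSS per gene (2.37, adjusted p = 0.0414, Fisher's exact tests). A lincRNA held 3.32% of middle-distance and 0.782% of intronic peaks. How much of each class's eligible sequence lies in non-coding genes was not counted. These tests therefore cannot tell a property of the peaks from the layout of the annotation. The strongest lay in Gm2619 (24.6), Gm12474 (21.1), Gm11998 (20.2) and BC039771 (19.2). The Bcl2l11 peak of 18.1 lay in the lincRNA Gm14005, and the strongest peak nearest to Ripk2, a kinase gene of the NOD pathway, lay in the lincRNA A530072M11Rik (16.8).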

How the data were processed

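Groups were taken from the labels, which name 3 Runx3 IP and 2 NIS IP libraries while speaking of 2 replicate experiments. Per the submitters' processing notes, CASAVA 1.8, Bowtie 1 and MACS2 2.0.10 were used on mm9. Per the file headers, tags of 38 bp (12078978 Runx3 and 7110481 NIS, 8689867 and 4946605 after duplicates were removed) were extended to the estimated fragment length and called at a q cutoff of 0.05. The deposited pileup is a signal, Runx3 fragments scaled to NIS depth, and came out as whole multiples of 0.569 within 0.009 of a fragment. The deposited fold enrichment is a ratio, pileup plus 1 over NIS background plus 1, from which the background was recovered. A deposited −log10 q column, whose header cell is unreadable, was told by its place and values and served as a filter; that of −log10 p was not used. Removing duplicates limits tall summits, and a high background lowers the fold.

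Positions were classed with NCBIM37 sequence and GENCODE vM1, by every protein-coding transcript's TSS, and the bases of each class were counted exactly without N. Motifs were searched on both strands within 100 bp of summits and 1 kb to either side. Shares carry Wilson intervals, differences Newcombe intervals and densities exact Poisson intervals at 95%. Fisher, McNemar and binomial tests were two-sided and exact, with Benjamini-Hochberg adjustment over 18 class, 24 flank, 11 core, 33 class-by-motif, 7 strength and 3 density tests at 0.05. Named genes are those of the 20 strongest peaks, the 10 genes with most peaks, up to 4 per list by fold and those at the distance limits; names of the lowest and widest peaks, of the chains and of non-coding genes, and those said to be, were chosen after values were seen. A few items that this rule names are not reported here. Gene lists were read without a set test, by counts over genes with eligible sequence and by peaks per Mb with their intervals. The plan had named counts only, beside all autosomal protein-coding genes. The densities and intervals of the lists go beyond it and are descriptive. The members and lists were chosen with earlier results of these data known. Functions were tested on simulated data. Statistics used SciPy 1.17.1 with NumPy 2.4.6, tables pandas 2.3.3 and figures matplotlib 3.10.9, all in Python 3.11.15. Alternatives were a −log10 q of 5, a fold of 10, no distal chromosome 5, 1 peak per 100 kb, 1 outermost TSS per gene, limits of 25 and 75 kb, motif windows of 50 and 200 bp, TGTGGT alone, and neighbours within 5 or 25 kb. The class-by-motif and strength tests, with their alternatives, and the motif windows and letters for the core split were chosen after seeing the data.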

Additional observations from a re-analysis of the deposited data

How the results depend on the processing

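The core share against both flanks, the density ratios, the core share against the 3 classes and the orientation kept their direction, or stayed undetected, and their side of the threshold under every alternative run for them; density was not run with 1 peak per 100 kb. Outside every gene of any biotype 1756 peaks remained. With a fold of 10 or more there were 566 peaks, 484 nearest genes, 38 listed genes, 3 companion motifs above both flanks in place of 7 and 0 that differed with a core in place of 2, and the differences in neighbours were -5.24 points to near intergenic (adjusted p = 0.142), 4.07 to gene-desert (0.520) and 0.71 to intronic peaks (0.943, Fisher's exact tests); this filter leaves fewer peaks. The number of motifs that differed with a core was 1 at a −log10 q of 5, at 25 to 75 kb and within 200 bp. One peak per 100 kb left 1236 peaks. The neighbour difference to introns was then 4.15 points (adjusted p = 0.0644), with 1 outermost TSS per gene 1.97 (0.432), at 25 to 75 kb 4.2 (0.0727), within 5 kb 2.54 (0.200) and within 25 kb 0.70 (0.770); that to gene deserts within 5 kb was 3.81 (0.127, Fisher's exact tests). Without distal chromosome 5 the fold difference to introns passed, -4.09 points (adjusted p = 0.0393, Fisher's exact test). The core difference between the highest and lowest fold quintiles was -1.05 points among peaks with a fold of 10 or more and 14.2 to 27.8 otherwise. The causes were not tested. Of the other values under alternatives, 704 kept their call or size, 43 no longer passed, 11 newly passed, 18 counts moved and 1, the fold quintiles above, turned. No paired analysis was possible because the only list holds no values per library. The smallest peaks rest on few fragments, 9 at the lowest, so their folds are imprecise.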
